A study of Danio rerio with 4 samples.

Results

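Complement is a cascade of plasma proteins, made in large part by hepatocytes, that marks microbes and dying cells for uptake and can pierce membranes. Lectins or antibodies bound to a surface activate proteases such as the mannan-binding lectin serine proteases, which cleave C4 and start the cascade, and cleavage of C3 is the step on which all routes converge. Cleavage of C5 then starts the terminal part, in which C6, C7, the 3-chain protein C8 and many copies of C9 join into a pore. Zebrafish carry several copies of c3.

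The 9 genes described here were 3 central components (c3a.2, ENSDARG00000087359; c3b.1, ENSDARG00000093068; c4b, ENSDARG00000038424), 5 terminal components (c5, ENSDARG00000021004; c8a, ENSDARG00000039516; c8b, ENSDARG00000039517; c8g, ENSDARG00000032098; c9, ENSDARG00000016319) and 1 gene of the lectin pathway (masp2, ENSDARG00000007988). They were taken by symbol from the 33737 genes of the deposited table, and the deposited descriptions of all 9 named a complement component or a mannan-binding lectin serine protease. For masp2 the symbol and the description differ: the description reads serine protease 1, while the ID with the symbol masp1 is described as serine protease 2, so that which of the paralogous proteases the ID encodes is uncertain. The symbols are used below. All 9 were among the 11135 genes with a mean of at least 1 RPKM (reads relative to transcript length and sequencing depth) over the libraries, which are called the tested genes.

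Hepatocytes came from zebrafish larvae of strain ABGO at 5.5 and 7.5 days post fertilization (dpf), either wild type or zc3h8-/- mutant, and all groups carried the transgene Tg(lfabp:Dendra2-NTR), whose liver fatty acid binding protein promoter marks hepatocytes with a fluorescent protein. The study compared mutant with wild type at each stage. Livers were dissected, dissociated with trypsin and sorted by flow cytometry, and full-length cDNA was amplified by the Smart-seq2 method. Each of the 4 groups was 1 library, and the labels do not give the number of larvae behind a library. Without replicates no p-value can be given for a gene in a comparison of libraries, and the 95% intervals of read ratios below cover counting error only. The targeted gene zc3h8 was not analysed here.

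Reads counted to genes numbered 29649005 to 36999967 per library. All 11 hepatocyte markers were above 0 in each library, but their summed level was lower in the mutant, at 44113 against 88522 RPKM at 5.5 dpf and 21000 against 77834 RPKM at 7.5 dpf. Their median difference of log2(RPKM + 1), mutant minus wild type, was -0.79 at 5.5 dpf and -1.96 at 7.5 dpf. Single markers ranged from -1.91 to 0.42 at 5.5 dpf and from -3.44 to -0.75 at 7.5 dpf. A gene given below as higher or lower relative to these markers is set against their median, and can lie within their range. The 12 macrophage markers summed to 9.79 RPKM in wild type and 29.5 RPKM in mutant at 5.5 dpf, and to 1.51 and 331 RPKM at 7.5 dpf, with ptprc and cd74a at 0 in all 4 libraries. The 6 neutrophil markers summed to 12.5 and 35.1 RPKM at 5.5 dpf and to 3.31 and 191 RPKM at 7.5 dpf, with only mmp9, mmp13a and srgn above 0 in the mutant libraries, npsn and csf3r at 0 in all 4 libraries and lyz at 9.55 RPKM in wild type at 5.5 dpf and 0 in the others. In the same order the 10 biliary and stellate markers summed to 560 and 808, then 866 and 2297 RPKM, and the 10 exocrine pancreas markers to 458 and 46.1, then 1879 and 506 RPKM. The part of these markers in the differences of the complement genes was not tested. In such bulk samples, fewer cells of a type and less RNA per cell cannot be told apart.

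In wild-type hepatocytes c9, c8g, c8a and c8b were the most abundant of the 9 genes, while the terminal gene c5 stood 8th at 5.5 dpf and 7th at 7.5 dpf. Per length, c9, whose protein forms most of the pore wall, stood first in all 4 libraries, at the 98.2 percentile of tested genes in wild type and the 95.8 percentile in mutant at 5.5 dpf, and at the 97.6 and 96.2 percentiles at 7.5 dpf. The second level in wild type was that of c8g, the lipocalin chain of C8, and the third that of c8a, a pore-forming chain of C8. The 5 terminal genes together came to 1035 RPKM in wild type at 5.5 dpf and 742 RPKM at 7.5 dpf, against 103 and 38.6 RPKM for the 3 central genes and 50.7 and 46.7 RPKM for masp2. The 9 genes took 0.289% of reads in wild type and 0.105% in mutant at 5.5 dpf, and 0.188% and 0.0833% at 7.5 dpf.

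**Figure D1:**
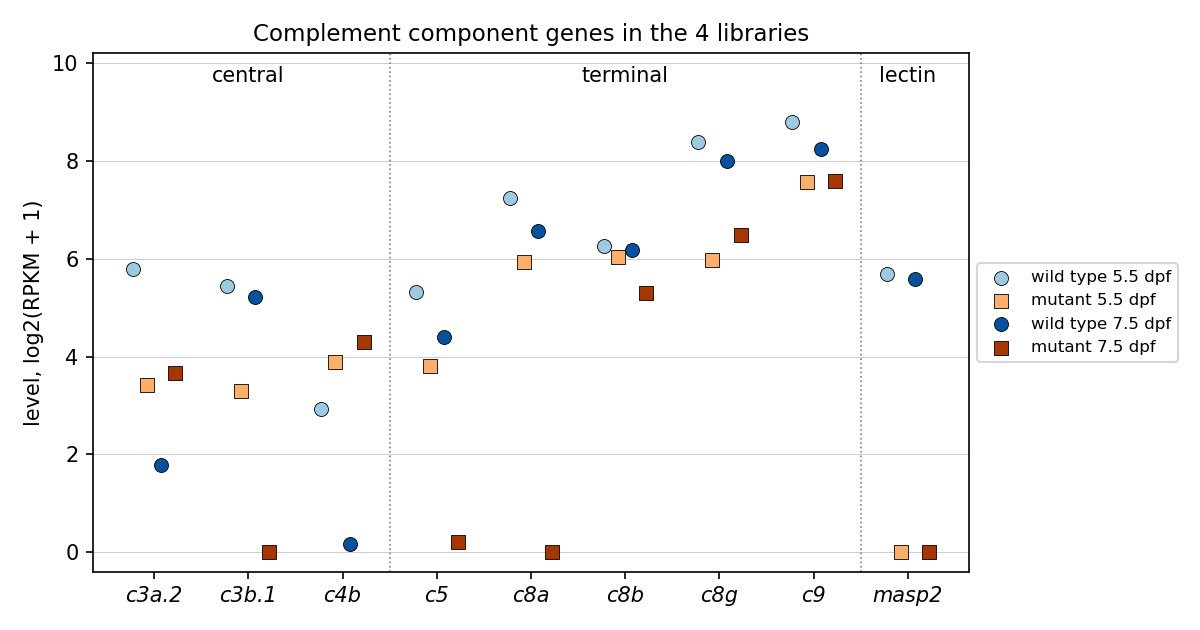
Level of each of the 9 genes as log2(RPKM + 1) in the 4 libraries, 1 point per library, with circles for wild type, squares for mutant and dotted lines between central, terminal and lectin pathway genes. c9 is the highest gene in each library, and c3b.1, c8a and masp2 lie at or close to 0 in the mutant at 7.5 dpf.

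At 5.5 dpf, 7 of the 9 genes were at least 2-fold lower in the mutant on the log2(RPKM + 1) scale, and none was 2-fold higher. Of all tested genes, 25.6% were 2-fold lower and 28.0% were 2-fold higher. The 2 genes within 2-fold were c4b and c8b. The median difference was -1.52 over the 9 genes and 0 over all tested genes. By role, 2 of 3 central genes, 4 of 5 terminal genes and masp2 were 2-fold lower. Relative to the median of the hepatocyte markers, 4 of the 9 genes were still 2-fold lower (c3a.2, c3b.1, c8g and masp2) and c4b was 2-fold higher, where 16.8% of all tested genes were lower and 44.2% higher.

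At 7.5 dpf the genes spread apart, with 5 of 9 at least 2-fold lower in the mutant (c3b.1, c5, c8a, c8g and masp2), 2 at least 2-fold higher (c3a.2 and c4b) and 2 within 2-fold (c8b and c9). Of all tested genes, 23.1% were 2-fold lower and 40.0% were 2-fold higher at this stage. The median difference over the 9 genes was -1.51, against 0.33 over all tested genes. The largest differences were -5.19 for c3b.1, -4.20 for c5, -6.56 for c8a, -5.58 for masp2 and 4.14 for c4b. The share of all tested genes with differences of such size was not counted. With median-ratio scaling of the libraries c8b (-1.29) and c9 (-1.09) also passed 2-fold, so that 7 of the 9 genes were lower and 2 higher, against 26.2% and 35.2% of tested genes. Relative to the hepatocyte markers the median of the 9 genes was 0.45, with c3b.1, c5, c8a and masp2 2-fold lower and c3a.2, c4b, c8b and c9 2-fold higher, where 9.79% of tested genes were lower and 76.7% higher.

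Both mutant libraries lay below both wild-type libraries for 7 of the 9 genes (c3b.1, c5, c8a, c8b, c8g, c9 and masp2), a pattern held by 13.0% of all tested genes. Relative to the median of the hepatocyte markers c8b turned higher at both stages and c8g and c9 at 7.5 dpf. There c8b and c8g still lay within the range of the single markers. For c4b both mutant libraries lay above both wild-type libraries, as for 22.8% of tested genes. The groups overlapped for c3a.2.

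**Figure D2:**
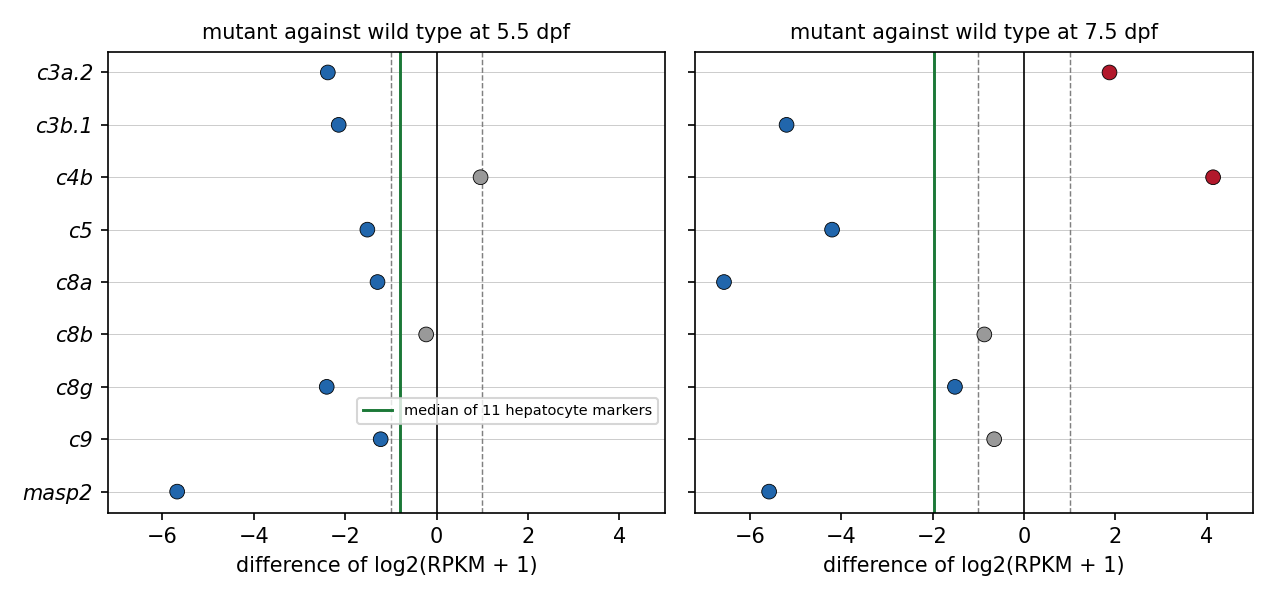
Difference of log2(RPKM + 1), mutant minus wild type, of the 9 genes at 5.5 dpf (left) and 7.5 dpf (right), 1 library per group, with dashed lines at 2-fold and points in blue for lower, red for higher and grey within 2-fold. The green line is the median of the 11 hepatocyte markers at -0.79 and -1.96, and of the genes below 0, c8b at both stages and c8g and c9 at 7.5 dpf lie to the right of it.

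The central genes did not move as a group. Their summed level was 103 RPKM in wild type and 32.3 RPKM in mutant at 5.5 dpf, 3.20-fold lower, and 38.6 and 30.4 RPKM at 7.5 dpf, 1.27-fold lower. At 7.5 dpf c3b.1 was lower in the mutant while c3a.2 and c4b were higher.

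For c3b.1, a copy of C3, whose cleavage products tag surfaces and recruit leukocytes, the level at 5.5 dpf was 42.3 RPKM in wild type and 8.79 RPKM in mutant, and at 7.5 dpf it was 36.1 and 0.012 RPKM. Both wild-type libraries were alike and both mutant libraries were below them. The mutant was 4.81-fold lower at 5.5 dpf (interval 4.57 to 5.06). At 7.5 dpf the gene had 7755 reads in wild type and 2 reads in mutant, a ratio of 3107-fold lower (860 to 25661).

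The deposited description of c3a.2 reads Complement C3 (Fragment), as do those of c3a.1, c3a.3 and c3a.6. A tested gene without a symbol, ENSDARG00000090176, has this description too. That gene was at 2.63 RPKM in wild type and 2.70 RPKM in mutant at 5.5 dpf, and at 1.26 and 0.039 RPKM at 7.5 dpf. The level of c3a.2 was 54.5 RPKM in wild type and 9.66 RPKM in mutant at 5.5 dpf, and 2.44 and 11.6 RPKM at 7.5 dpf. The wild-type library at 7.5 dpf was the lowest of the 4 and the wild-type library at 5.5 dpf the highest, while the mutant libraries lay between them. The mutant was 5.64-fold lower at 5.5 dpf (5.37 to 5.94) and 4.75-fold higher at 7.5 dpf (4.28 to 5.27). Wild type itself was 22.3-fold lower at 7.5 than at 5.5 dpf (20.3 to 24.5), and the mutant 1.20-fold higher (1.12 to 1.28).

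C4, encoded by c4b, is cleaved by the initiator proteases and its larger fragment becomes part of the enzyme that cleaves C3. The level of c4b at 5.5 dpf was 6.61 RPKM in wild type and 13.8 RPKM in mutant, and at 7.5 dpf it was 0.12 and 18.7 RPKM. Reads numbered 1430 and 3022 at 5.5 dpf, and 27 and 3342 at 7.5 dpf. The ratio was 2.09-fold higher in the mutant at 5.5 dpf (1.96 to 2.23) but 0.96 on the log2(RPKM + 1) scale, just within the 2-fold limit. In the mutant at 7.5 dpf it was 154-fold higher (106 to 235), and this rested on a wild-type library 54.5-fold below the earlier one (37.3 to 83.0), since the mutant libraries differed by 1.36-fold (1.29 to 1.42). Another gene, c4, has the same deposited description as c4b, Complement C4-B, and was below the minimum mean. It had 105 reads in wild type and 414 in mutant at 5.5 dpf, and 0 in both libraries at 7.5 dpf.

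The c3 copies are close in sequence, so reads could have been split or lost among them in counting, and values of single copies are uncertain. Leaving out ENSDARG00000090176, which has no symbol, the table held 8 c3 genes by symbol, of which 6 were tested. Their summed level was 339 RPKM in wild type and 118 RPKM in mutant at 5.5 dpf, 2.88-fold lower, and 263 and 66.5 RPKM at 7.5 dpf, 3.95-fold lower, but relative to the hepatocyte markers c3a.6 turned higher at both stages (by 0.72 and 0.79 on the log2 scale), c3a.3 at 7.5 dpf (by 0.35), and c3a.1 was lower by only 0.08 at 7.5 dpf. The most abundant copy was c3a.1, which is not among the 9 genes, with 166 and 70.0 RPKM at 5.5 dpf and 137 and 32.7 RPKM at 7.5 dpf. It held between 49.1 and 59.5% of the summed c3 level in each library. The share of c3a.2 was 16.1% in wild type and 8.20% in mutant at 5.5 dpf, and 0.93% and 17.4% at 7.5 dpf. The share of c3b.1 was 12.5 and 7.47% at 5.5 dpf and 13.7 and 0.017% at 7.5 dpf. The c3b.2 gene, next to c3b.1 in the order of protein-coding genes of the RefSeq annotation of assembly GRCz12tu, was also low in the late mutant, at 22.1 RPKM in wild type and 0.89 RPKM in mutant, 24.8-fold lower (21.1 to 29.3). The c3a.3 gene, next to c3a.2 in the same annotation, had 52.9 RPKM in wild type and 16.6 RPKM in mutant at 7.5 dpf, 3.18-fold lower (3.05 to 3.32) but not lower relative to the hepatocyte markers, while c3a.2 was higher.

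**Figure D3:**
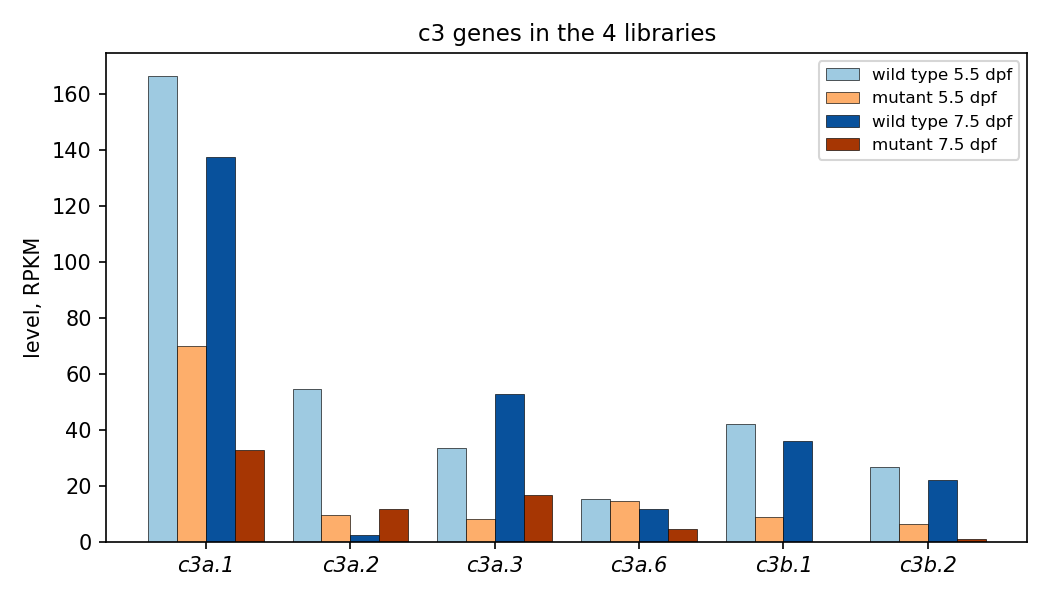
Level in RPKM of the 6 tested genes with a c3 symbol in the 4 libraries, 1 bar per library, from 0. At 7.5 dpf the mutant bar is below the wild-type bar for all copies shown except c3a.2, and c3b.1 has 2 reads there, while relative to the hepatocyte markers c3a.3 and c3a.6 are higher in that library.

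The summed level of the terminal genes was 387 RPKM in mutant against 1035 RPKM in wild type at 5.5 dpf (2.67-fold lower) and 320 against 742 RPKM at 7.5 dpf (2.32-fold lower). Hepatocyte markers were lower by 0.79 and 1.96 in their median log2 difference at the same stages. Within the terminal genes c5 and c8a were at or near the counting floor in the late mutant, while c8b, c8g and c9 had between 2609 and 13360 reads there.

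C5 is the precursor of the inflammatory peptide C5a and of C5b, the base of the pore. The level of c5 was 39.1 RPKM in wild type and 13.0 RPKM in mutant at 5.5 dpf, and 20.1 and 0.15 RPKM at 7.5 dpf. Both mutant libraries lay below both wild-type libraries. The mutant was 3.0-fold lower at 5.5 dpf (2.87 to 3.14) and, with 23 against 3832 reads, 134-fold lower at 7.5 dpf (88.8 to 211).

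The level of c8a was 149 RPKM in wild type and 60.2 RPKM in mutant at 5.5 dpf, and 93.6 and 0 RPKM at 7.5 dpf. The late mutant library thus stood apart from the other three. The mutant was 2.48-fold lower at 5.5 dpf (2.39 to 2.56) and at least 1982-fold lower at 7.5 dpf, where 7420 reads in wild type faced 0 in mutant. A count of 0 allows up to 3 reads, or 0.101 CPM (reads relative to sequencing depth alone), in that library.

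For c8b, the chain of C8 that binds the growing complex, the level was 75.9 RPKM in wild type and 64.6 RPKM in mutant at 5.5 dpf, and 71.1 and 38.5 RPKM at 7.5 dpf. The 4 libraries of c8b lay within 1.97-fold, the narrowest range of the 9 genes. The mutant was 1.17-fold lower at 5.5 dpf (1.13 to 1.22) and 1.85-fold lower at 7.5 dpf (1.76 to 1.93). Relative to the median of the hepatocyte markers it was higher at both stages, by 0.57 and 1.09 on the log2 scale. Its differences lay within the range of the single markers at both stages.

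The level of c8g was 331 RPKM in wild type and 61.6 RPKM in mutant at 5.5 dpf, and 255 and 88.7 RPKM at 7.5 dpf. Both mutant libraries were well below both wild-type libraries, and the earlier of the mutant libraries was the lower. The mutant was 5.37-fold lower at 5.5 dpf (5.16 to 5.58) and 2.87-fold lower at 7.5 dpf (2.77 to 2.98). Relative to the median of the hepatocyte markers it was 0.45 higher on the log2 scale at 7.5 dpf, within the range of the single markers.

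For c9 the levels were 440 RPKM in wild type and 188 RPKM in mutant at 5.5 dpf, and 303 and 192 RPKM at 7.5 dpf. The mutant was 2.34-fold lower at 5.5 dpf (2.30 to 2.39) and 1.57-fold lower at 7.5 dpf (1.54 to 1.61), and relative to the hepatocyte markers it was higher at 7.5 dpf, by 1.31 on the log2 scale.

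The 3 chains of C8 are joined in the protein in equal numbers, and their transcript levels per length did not keep a constant ratio. The RPKM of c8a over that of c8b was 1.96 in wild type (interval 1.90 to 2.03) and 0.93 in mutant (0.90 to 0.97) at 5.5 dpf, then 1.32 in wild type (1.27 to 1.36) and at most 0.0012 in mutant at 7.5 dpf. The ratio of c8g to c8b was 4.36 (4.23 to 4.49) and 0.95 (0.91 to 1.00) at 5.5 dpf, and 3.58 (3.47 to 3.69) and 2.30 (2.19 to 2.42) at 7.5 dpf. These ratios compare genes within a library and are free of its scaling. The genes c8a and c8b were direct neighbours among the protein-coding genes of the RefSeq annotation of GRCz12tu, and the reads of the late mutant numbered 0 for the former and 2609 for the latter.

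The gene masp2 was all but undetected in both mutant libraries. Its protein in mammals cleaves C4 and C2 once a lectin has bound sugars on a surface. Its level was 50.7 RPKM in wild type and 0.0099 RPKM in mutant at 5.5 dpf, and 46.7 and 0 RPKM at 7.5 dpf. The wild-type libraries held 5041 and 4781 reads and the mutant libraries 1 and 0. The mutant was 5096-fold lower at 5.5 dpf, with an interval of 914 to 201323, and at least 1277-fold lower at 7.5 dpf. Its paralogue masp1 was at 21.1 RPKM in wild type and 16.0 RPKM in mutant at 5.5 dpf, and at 10.6 and 8.58 RPKM at 7.5 dpf, within 2-fold at both stages. Relative to the hepatocyte markers masp1 was higher at both stages, by 0.42 and 1.68 on the log2 scale.

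Levels of at least 30 RPKM in wild type beside 3 reads or fewer in the mutant were uncommon at 5.5 dpf, at 23 of 1721 genes (1.34%), and of the 8 component genes (of the 9) at such a level only masp2 was among them. At 7.5 dpf there were 109 of 1776 genes (6.14%), and c3b.1, c8a and masp2 made 3 of the 6 component genes (of the 9) at such a level. The reverse pattern is 3 reads or fewer in wild type beside at least 30 RPKM in the mutant. Of the genes at that level in the mutant, 1.45% held it at 5.5 dpf and 12.4% at 7.5 dpf. Of the 9, only c8a, c8b, c8g and c9 reached the level at 5.5 dpf, and c8b, c8g and c9 at 7.5 dpf. None of these held the pattern, which says little for so few genes.

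The comparisons between stages used the same 4 libraries as those between genotypes, so their values are given side by side and do not stand apart from them. In wild type all 9 genes were lower at 7.5 than at 5.5 dpf, as were 50.4% of tested genes, but only c3a.2 and c4b passed 2-fold. Of all tested genes 30.1% were 2-fold lower and 21.4% 2-fold higher between the wild-type stages. The median was -0.54 over the 9 genes and -0.01 over all tested genes, and relative to the hepatocyte markers it was 0.05. The other 7 genes lay between 1.07-fold lower for c8b and 1.94-fold lower for c5.

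In the mutant 3 of the 9 genes were 2-fold lower at 7.5 than at 5.5 dpf (c3b.1, c5 and c8a) and none was 2-fold higher, where 26.2% of tested genes were 2-fold lower and 33.8% were 2-fold higher. The median was -0.01 over the 9 genes, and 1.58 relative to the hepatocyte markers, which were themselves lower at 7.5 dpf. The late mutant was 758-fold below the early one for c3b.1 (209 to 6261), 86.2-fold for c5 (57.3 to 136) and at least 1274-fold for c8a. By contrast c8g was 1.44-fold higher (1.37 to 1.51), and c9 was 1.02-fold higher with an interval of 0.999 to 1.05 that covers no difference. For masp2 no fold is given, since both mutant libraries were at 3 reads or fewer.

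The wider pathway was followed through a list of 71 symbols, of which 39 had a row in the table. They gave 20 tested genes beyond the 9. At 5.5 dpf 9 of the 20 were 2-fold lower in the mutant, 11 were within 2-fold and none was higher, with a median of -0.53. Of all tested genes 25.6% were lower and 28.0% higher. Among the 11, c1qb, hbl1, cfbl and c3ar1 had 0 reads in both libraries at 5.5 dpf, so they were undetected rather than unchanged. At 7.5 dpf 9 were lower, 4 within and 7 higher, with a median of -0.49, against 23.1% of tested genes lower and 40.0% higher. Of the 7, c1qb, hbl1, cfbl and c3ar1 had reads in the late mutant library only. They passed the minimum mean through that library alone, so their calls as higher were fixed by the filter. Among those called lower, c7a passed it only through the wild-type library at 7.5 dpf, so its call was fixed likewise. Relative to the hepatocyte markers 3 of the 20 were lower and 1 higher at 5.5 dpf, with a median of 0.26, where 16.8% of tested genes were lower and 44.2% higher. This median includes the undetected genes, which centring put at 0.79 each. By the same measure 3 were lower and 11 higher at 7.5 dpf, with a median of 1.47, where 9.79% of tested genes were lower and 76.7% higher.

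Recognition molecules did not share a pattern. Transcripts of hbl1, which encodes a hexose-binding lectin, and of c1qb, a chain of the classical pathway's C1q, were at 0 in the other 3 libraries and at 17.9 and 16.6 RPKM in the mutant at 7.5 dpf, at least 225-fold and at least 192-fold above wild type. The other C1q chains did not share this shape. The gene c1qa, below the minimum mean, had 476 reads in the mutant at 5.5 dpf and 0 in the other 3 libraries, and c1qc had 0 in all. Among the macrophage markers marco, lcp1 and the mfap4 ID ENSDARG00000090783 had the same shape as hbl1 and c1qb. They were at 0 in 3 libraries and at 58.1, 26.7 and 16.0 RPKM in the late mutant. The other macrophage markers did not share it. At 5.5 dpf coro1a had 346 reads in wild type and ctss2.1 had 548 reads in mutant, and ptprc and cd74a were at 0 throughout. The part of macrophages in these values was not tested. The collectin colec11 was at 17.4 RPKM in wild type and 4.64 RPKM in mutant at 5.5 dpf, and at 71.0 and 43.4 RPKM at 7.5 dpf, so that it was 3.74-fold lower (3.37 to 4.15) and then 1.64-fold lower (1.57 to 1.70). Relative to the hepatocyte markers colec11 was lower by 0.91 on the log2 scale at 5.5 dpf but higher by 1.26 at 7.5 dpf. The gene hbl4 was within 2-fold between genotypes at both stages, and higher by 0.51 and 2.48 relative to the hepatocyte markers.

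Among the alternative pathway genes, cfb, which encodes factor B, a protease subunit of the enzyme that cleaves C3, was at 416 RPKM in wild type and 324 RPKM in mutant at 5.5 dpf, and at 419 and 99.5 RPKM at 7.5 dpf. Only the late mutant library stood apart, 4.21-fold below wild type (4.10 to 4.31), or 0.10 lower on the log2 scale relative to the hepatocyte markers. The related bfb was 5.25-fold lower at 5.5 dpf (4.62 to 5.98) and 83.9-fold lower at 7.5 dpf (48.9 to 158), with 13 reads left in the late mutant. In the other direction, cfd, which encodes the protease that cleaves factor B, was at 202 and 225 RPKM at 5.5 dpf and at 553 and 1980 RPKM at 7.5 dpf, 3.58-fold higher in the late mutant (3.52 to 3.64). The gene cfbl had 1114 reads in the late mutant and 0 in the other three libraries, at least 463-fold above wild type.

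The terminal genes outside the 9 also went both ways at 7.5 dpf. The level of c7b, a copy of C7, was 13.5 RPKM in wild type and 22.9 RPKM in mutant at 5.5 dpf, and 4.65 and 25.7 RPKM at 7.5 dpf, 5.52-fold higher (4.98 to 6.13). Its paralogue c7a was at 0.60 RPKM in wild type and 0 in mutant at 5.5 dpf, and at 4.18 and 0 RPKM at 7.5 dpf, at least 127-fold lower. It passed the minimum mean only through the wild-type library at 7.5 dpf, so its call as lower at that stage was fixed by the filter.

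Of the regulators, all 4 tested genes of the symbol list were 2-fold lower in the mutant at 5.5 dpf, as were 25.6% of all tested genes. Relative to the hepatocyte markers they were lower by less than 2-fold. Genes described as factor H, factor I and vitronectin lay outside that list, and they did not all go the same way (see the other observations). The C1 inhibitor gene serping1, whose product blocks the initiator proteases, was at 40.2 RPKM in wild type and 17.1 RPKM in mutant at 5.5 dpf, and at 33.3 and 0.025 RPKM at 7.5 dpf. It was 2.35-fold lower (2.22 to 2.49), and then 1312-fold lower (363 to 10836) with 2 reads in the late mutant. Clusterin, encoded by clu and able to block the forming pore, was at 6.14 and 2.38 RPKM at 5.5 dpf and at 0 and 26.2 RPKM at 7.5 dpf, at least 632-fold higher in the late mutant. The carboxypeptidase gene cpb2 was 2.84-fold lower (2.73 to 2.95) and 2.52-fold lower (2.36 to 2.68), and relative to the hepatocyte markers it was higher at 7.5 dpf, by 0.66 on the log2 scale. The receptor gene c3ar1 had reads in the late mutant library only, at 9.42 RPKM, at least 112-fold above wild type. The other receptor genes with a row, both below the minimum mean, did not share this shape. Reads of c5ar1 were 0 in all libraries, and itgb2 had 13 reads in wild type and 1 in mutant at 7.5 dpf.

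**Figure D4:**
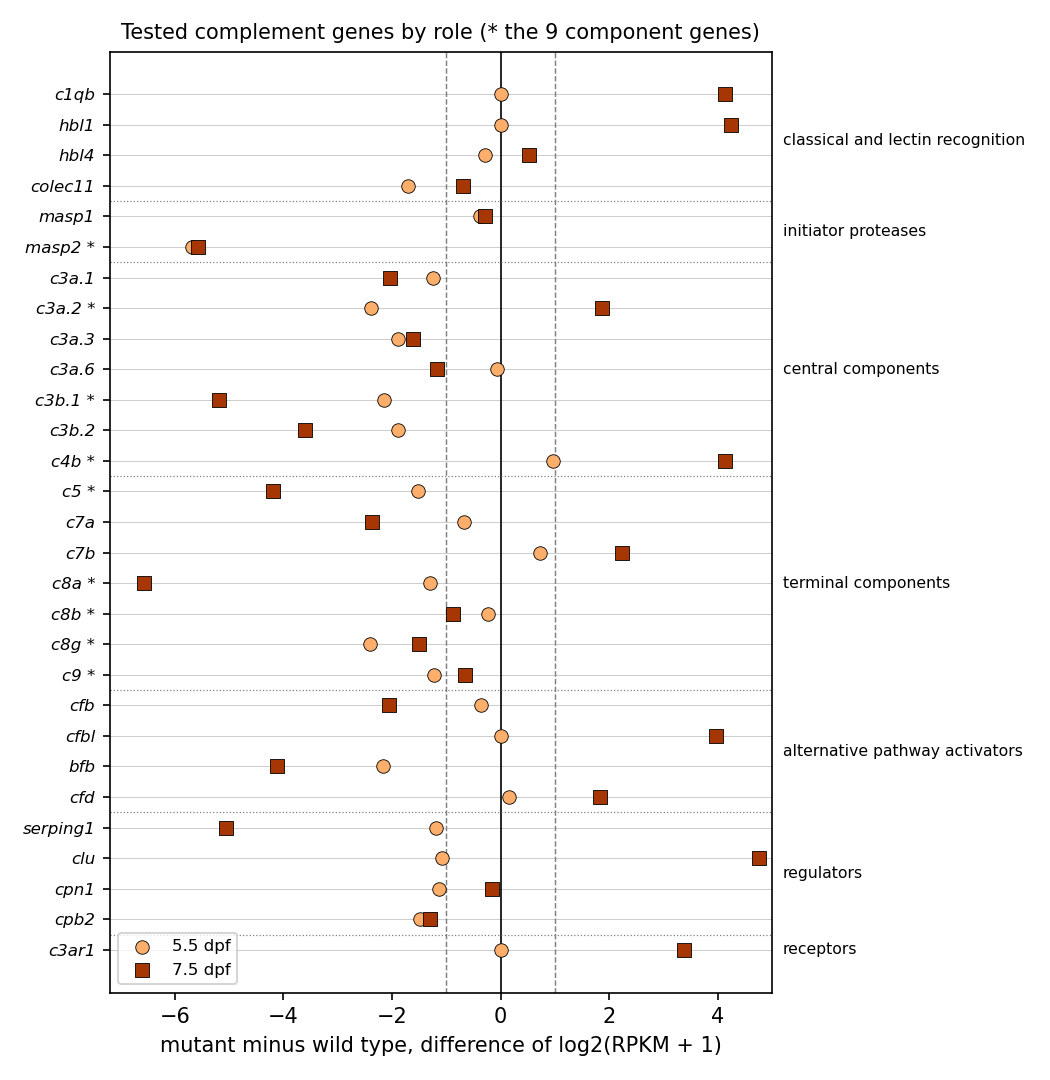
Difference of log2(RPKM + 1), mutant minus wild type, for the 29 tested complement genes ordered by role, with circles for 5.5 dpf, squares for 7.5 dpf and dashed lines at 2-fold, 1 library per group, with no scaling to hepatocyte markers. Squares spread further to both sides than circles, from c8a at -6.56 to clu at 4.77. The circles of c1qb, hbl1, cfbl and c3ar1 lie at 0 because both libraries had 0 reads. The side on which the squares of these genes and of c7a lie was fixed by the filter on the mean. Of all tested genes 25.6% were 2-fold lower and 28.0% higher at 5.5 dpf, and 23.1% and 40.0% at 7.5 dpf.

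The gene whose pattern over the 4 libraries was most like that of each complement gene was sought among 3562 genes with a symbol and a mean of at least 10 RPKM, by the Euclidean distance of centred log2(RPKM + 1). With 4 libraries as points, the distance is a description. The closest pair was c8b with SAP30L at 0.10, followed by c9 with IDH1 at 0.13. For c8a the nearest gene was the coagulation factor gene F9 at 0.48, with 101 and 48.0 RPKM at 5.5 dpf and 95.2 and 0 RPKM at 7.5 dpf. For c5 it was DECR2 at 0.23, for c3b.1 eevs at 0.25, for masp2 si:ch211-201h21.5 at 0.25, for c4b ENY2 at 0.21 and for c8g ppifb at 0.28. No gene was near c3a.2, for which SFXN1 at 0.79 was the closest. None of the 9 genes had another of the 9 as its nearest gene. This says little with 3562 candidates, and c4b, at a mean of 9.82 RPKM, was not among the candidates. The closest of the 9 to each other were c8b and c9 at 0.74, with 202 genes nearer to c8b and 93 nearer to c9. Then came c3b.1 and c5 at 0.98, with 19 and 31 genes nearer.

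A count model with stage as a covariate estimated an average difference between the genotypes over 5.5 and 7.5 dpf, with the stages in the place of replicates. It did not ask whether the differences were alike at both stages, and its p-values do not measure the spread between larvae. It had 1 residual degree of freedom. The edgeR quasi-likelihood test called 0 of 11135 tested genes at an adjusted p under 0.05, and 342 genes (3.07%) had an unadjusted p under 0.05. Among the 9 genes the unadjusted p-values were under 0.05 for masp2 (0.00126), c8g (0.00887) and c9 (0.0201), and all adjusted p-values were 1. DESeq2 in the same design called 440 genes lower (5.02%) and 341 higher (3.89%) of 8760 with an adjusted p-value. Its calls took in 4 of the 9 genes, all lower: masp2 (DESeq2 adjusted p = 2.1e-10), c3b.1 (0.000248), c5 (0.00749) and c8g (0.0176).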

How the data were processed

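Groups follow the labelled genotype and stage, with 1 library in each of the 4. The submitters' processing notes name the tools DESeq 1.16.0, HTSeq 0.6.0, TopHat2 2.0.12 and Bowtie2 2.2.3 without saying what each did. Genome build, annotation and strand setting: not given in the sources used here. The authors deposited, per the file headers, RPKM for 33737 genes and 4 comparison tables, each with a fold change (a ratio), a log2 fold change, a p-value and an adjusted p-value. The authors deposited values in those tables that were found, from their common step, to be CPM. The authors' p-values were not used.

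Whole reads were recovered from the CPM: 86618 of 86618 listed values above 0 reads (100%) were whole within a tolerance of 0.01 of a read. Of 44540 values of tested genes, 1502 were not listed and were filled from RPKM. Smart-seq2 reads carry no molecular identifiers, so reads are not independent molecules and intervals and floors cover counting error only. Symbols came from a table matching 21939 of 33737 IDs (65.0%).

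Differences are of log2(RPKM + 1), a scale on which low genes change less than their ratio, with a pseudocount of 1 and a minimum mean of 1 RPKM over the 4 libraries. It was called at 2-fold, with no test. Read ratios have 95% exact (Clopper-Pearson) intervals. A ratio against 0 reads is a bound at the floor of 3 reads per library, and a gene with 3 reads or fewer on both sides gets no ratio. The count model used edgeR 4.0.16 and DESeq2 1.42.0 on the recovered reads, with R 4.3.3, Python 3.11.15, pandas 2.3.3, NumPy 2.4.6, SciPy 1.17.1 and matplotlib 3.10.9, and was tested on simulated data. Neighbours come from the RefSeq table of GRCz12tu, whose coordinates were not used.

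The 9 genes, the wider list and the marker lists were chosen with earlier results of these data known. The text could name all 9 genes, the tested genes of the wider list and, for each of the 9, its nearest gene. Outside this rule, c1qa and c1qc are named beside c1qb as the other chains of C1q. Likewise c4 is named beside c4b, and c5ar1 and itgb2 beside c3ar1. Of the 71 symbols of the wider list, 32 had no row in the table used. Other pseudocounts, filters, scalings and the authors' log2 fold change were tried as alternatives. The libraries cannot be left out in turn, since each group has 1.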

Additional observations from a re-analysis of the deposited data

Results flagged for a closer look

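Of the 29 tested genes of the complement list, those are given here whose differences had opposite signs in the 2 genotypes or stages, each at least 0.2 in size on the log2(RPKM + 1) scale and at least 1 of them past 2-fold. Opposite signs with both differences within 2-fold were held by c8g (-0.38 between stages in wild type and 0.52 in mutant), cpn1 (-0.42 and 0.55) and hbl4 (-0.28 between genotypes at 5.5 dpf and 0.52 at 7.5 dpf). None of these contrasts between differences was tested, since each group was 1 library. For c3a.2 the mutant minus wild-type difference was -2.38 at 5.5 dpf and 1.87 at 7.5 dpf, and the difference of 7.5 minus 5.5 dpf was -4.01 in wild type and 0.24 in mutant. For c4b the difference between stages was -2.76 in wild type and 0.41 in mutant. For clu the mutant minus wild-type difference was -1.08 at 5.5 dpf and 4.77 at 7.5 dpf, and the difference between stages was -2.84 in wild type and 3.01 in mutant. All of these rest in part on the wild-type library at 7.5 dpf, where c3a.2 had 468 reads, c4b 27 and clu 0, and in which 34.2% of tested genes had 3 reads or fewer, against 18.6 to 26.2% in the other libraries.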

How the results depend on the processing

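With 1 library per group no spread between animals was measured, and leaving out a library was not possible. No paired analysis was possible because the groups share fewer than 2 replicate numbers; the count model with stage as a covariate is the nearest fit to one. Medians are over the 9 genes, or over those of them kept where a smaller set is named, mutant minus wild type or 7.5 minus 5.5 dpf. The cause of each change was not tested. A pseudocount of 0.1 gave 1 gene 2-fold higher at 5.5 dpf (c4b), beside 31.5% of all tested genes, where the main count was 0. It gave a median of -0.14 between the mutant stages. A pseudocount of 5 gave medians of -1.29 at 5.5 dpf and -0.0029 between the mutant stages. A minimum mean of 10 RPKM, which removed c4b, gave medians of -1.83 at 5.5 dpf and -2.85 at 7.5 dpf, -0.46 between the wild-type stages and -0.37 between the mutant stages. It left 1 gene higher at 7.5 dpf, beside 40.0% of all genes kept, and 1 gene lower between wild-type stages, beside 24.7%. Median-ratio scaling, which moved the median of all tested genes at 7.5 dpf from 0.33 to 0.03, gave medians of -1.80, -1.94, -0.58 and -0.14 in the 4 comparisons. It gave 7 genes lower at 7.5 dpf, beside 26.2% of all tested genes, where the main count was 5. The authors' deposited log2 fold changes gave 1 gene higher at 5.5 dpf, beside 34.0% of all genes with such a value. Their medians were -1.59 at 5.5 dpf and -0.36 between the mutant stages. The latter was over 8 genes, since masp2 had no such value between the mutant stages.

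A further 2 alternatives were chosen after seeing the data. Centring on the hepatocyte markers gave 4 genes lower, 1 higher and a median of -0.72 at 5.5 dpf, and 4 higher with a median of 0.45 at 7.5 dpf. It turned c8g to 0.45 at 7.5 dpf, turned the medians between stages to 0.046 in wild type and 1.58 in mutant, and gave 5 genes higher between the mutant stages. It made 16.8% of all tested genes lower and 44.2% higher at 5.5 dpf, and 9.79 and 76.7% at 7.5 dpf. Between stages the shares were 22.6 and 30.8% in wild type and 13.3 and 68.7% in mutant. Keeping only genes above 3 reads on both sides removes those at the floor. At 5.5 dpf it left 8 of the 9 genes, 6 of them lower, where 17.7% of all genes kept were lower. Their median was -1.40. At 7.5 dpf it left 6 genes with a median of -0.76, where 2 were lower and 2 higher, against 21.4% and 35.0% of all genes kept. Between the mutant stages it left 6 genes with a median of 0.14, where 1 was lower, against 21.4% of all genes kept. DESeq2 called 4 of the 9 genes where edgeR called 0.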

Other observations

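Further complement genes were found by their deposited descriptions after values had been seen, and get no test. Of 16 such tested genes, 4 were 2-fold lower and 3 higher in the mutant at 5.5 dpf. At 7.5 dpf 6 were lower and 7 higher. Of all tested genes, 25.6% were lower and 28.0% higher at 5.5 dpf, and 23.1% and 40.0% at 7.5 dpf. Among those called higher, ENSDARG00000086724 had reads in the mutant library at 5.5 dpf only. ENSDARG00000094077 had reads in the mutant library at 7.5 dpf only. Each passed the minimum mean through that library alone, so its call as higher there was fixed by the filter. ENSDARG00000092192 had reads only in wild type at 5.5 dpf (89) and in mutant at 7.5 dpf (114). It passed the minimum mean only through these libraries together, so its calls as lower at 5.5 dpf and higher at 7.5 dpf depended on the filter. The most abundant of the 16 was ENSDARG00000094496, described as complement factor H, a brake on the enzyme that cleaves C3. It was at 1277 RPKM in wild type and 862 RPKM in mutant at 5.5 dpf and at 872 and 408 RPKM at 7.5 dpf. Relative to the hepatocyte markers it was higher at both stages, by 0.23 and 0.86 on the log2 scale. The other genes with this description did not share a direction. At 5.5 and 7.5 dpf the differences were -3.12 and -2.82 for ENSDARG00000056771, 0.85 and 1.72 for ENSDARG00000056778, and -1.35 and 5.13 for ENSDARG00000092786. The gene described as factor I (ENSDARG00000036900), the protease that works with factor H, was at 130 and 154 RPKM at 5.5 dpf and at 185 and 147 RPKM at 7.5 dpf. Relative to the hepatocyte markers it was higher by 1.03 and 1.62. For vitronectin the differences at 5.5 and 7.5 dpf were -0.59 and -0.82 (ENSDARG00000053831), and -0.91 and -1.42 (ENSDARG00000055388). Relative to the hepatocyte markers these became 0.20 and 1.14, and -0.12 and 0.54.

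Among the pore components, c6.2, a copy of C6, went the other way from c5 and c8a, at 2.59 RPKM in wild type and 8.84 RPKM in mutant at 5.5 dpf and at 2.07 and 37.7 RPKM at 7.5 dpf. It was 3.41-fold higher in the mutant at 5.5 dpf (3.03 to 3.83) and 18.2-fold higher at 7.5 dpf (16.2 to 20.6). The late mutant thus held transcripts of c6.2, c7b, c8b, c8g and c9 beside 23 reads of c5 and 0 of c8a. In that library the macrophage markers summed to 331 RPKM, the neutrophil markers to 191 RPKM and the biliary and stellate markers to 2297 RPKM. The part of any of these markers in the c6.2 and c7b levels was not tested.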
